A study of Homo sapiens with 72 samples.

Results

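NONHSAG032780.2 and NONHSAG015465.2 are 2 long non-coding RNA (lncRNA) genes of the NONCODE catalogue, out of 96411 lncRNA genes in the deposited table. They were chosen from measured values, as genes that rise with TGF-β by about the same amount in 3 breast cell lines. The rule does not state which contrast chose them. Every comparison with a TGF-β library is therefore a description, and tests were made only within the SB431542 arm. If the choice also used SB431542 libraries, as in a contrast of TGF-β with SB431542, these tests are not independent of it. The table does not pair its identifiers with gene symbols or positions, and 0 of its identifiers matched the RefSeq gene table, so both genes are called by identifier, with no position or sequence.

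The lines were MCF10A-M1 (M1), a non-malignant human mammary epithelial line, MCF10A-M2 (M2), the HA-Ras-transformed form of MCF10A labelled pre-malignant, and the triple-negative breast cancer line MDA-MB-231. Cells kept overnight without serum received TGF-β at 5 ng/mL or SB431542 (SB) at 10 µM, with 3 biological replicates per group and 24 groups (72 libraries). Each arm was sampled at 0, 2, 8 and 24 h by the titles, and the 0 h samples of the TGF-β arm are labelled as controls without stimulation. By their treatment label the 0 h samples of the SB arm had 0.5 h with the inhibitor, and "earliest SB" stands for them. Ligand buffer and DMSO are named as vehicles, but no group labelled as vehicle at 2, 8 or 24 h was analysed here. Changes within an arm thus also hold other changes over time. Whether each line carries its defining marker genes, or the Ras transgene, was not analysed here, since only lncRNA identifiers are listed.

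TGF-β is a secreted cytokine that binds a pair of type II and type I receptor kinases. The active type I receptor phosphorylates receptor-regulated SMAD proteins, which enter the nucleus with SMAD4 and change transcription; SB431542 blocks the kinase of the type I receptor. In mammary epithelium the pathway restrains growth and can drive the epithelial-to-mesenchymal transition, and Ras activity is known to change that balance.. Long non-coding RNAs are transcripts without a protein product, some of which act on transcription, splicing or signalling. No role of either gene is known from the files.

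Levels are in TPM, a transcript share corrected for length with the same total in each library; read depth is unknown. Per library, 8458 to 16748 lncRNA genes reached 0.5 TPM (median 13174), and the most abundant gene took 21.1% to 39.6% of the total. Because so uneven a share can shift every other gene, changes are given as deposited and, where it matters, after median-of-ratios rescaling. Over all genes tested the log2 change at 24 h of TGF-β had a median of −0.25 (M1), −0.74 (M2) and −0.25 (MDA-MB-231) as deposited, and of 0.00, −0.15 and −0.03 after rescaling.

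Both genes stood highest under TGF-β and lowest under SB. NONHSAG032780.2 ranged over the 24 group means from 12.0 ± 5.11 TPM (SD, n = 3) in M1 at 24 h of TGF-β to a group listed at 0 in all 3 libraries, M2 at 24 h of SB. The first 7 places in its order were TGF-β groups at 2 to 24 h, and neighbours among them overlapped. M2 at 8 h of TGF-β came next at 3.58 ± 0.167 TPM (n = 3) and overlapped neither neighbour. Places 9 to 17 ran from 2.09 to 0.948 TPM with every neighbour overlapping. They held the M1 controls, the M1 SB groups up to 2 h, every MDA-MB-231 group without ligand, and M2 at 2 h of TGF-β. The last 7 places, at 0.251 TPM or less, were M1 under SB at 8 and 24 h and M2 without ligand.

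NONHSAG015465.2 ranged from 26.1 ± 6.38 TPM in M2 at 8 h of TGF-β to 0.184 ± 0.175 TPM in M1 at 24 h of SB (SD, n = 3 each). Its first 8 places were TGF-β groups whose neighbours overlapped, down to 10.2 ± 1.16 TPM in M1 at 2 h. Places 9 to 20 ran from 7.83 to 2.07 TPM, again with every neighbour overlapping. They began with MDA-MB-231 at 2 h of TGF-β, followed by that line's 4 SB groups and control. The last 4 places, at 1.21 TPM or less, were M2 and M1 under SB at 8 and 24 h. At 24 h of TGF-β its mean percentile among the genes above 0 TPM in a library was 89.2 (M1), 92.6 (M2) and 91.8 (MDA-MB-231), against 86.0, 86.8 and 87.6 for NONHSAG032780.2.

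**Figure D1:**
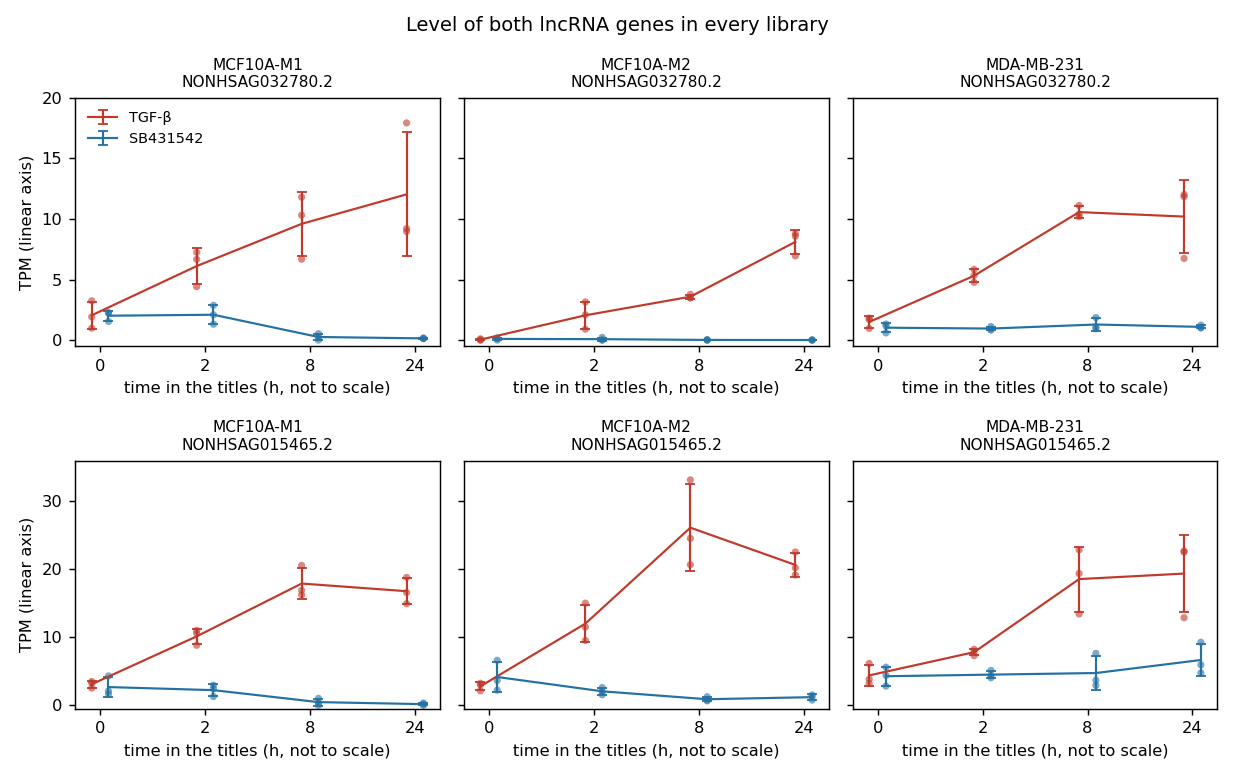
Level of NONHSAG032780.2 (top) and NONHSAG015465.2 (bottom) in TPM against the time in the sample titles in hours (evenly spaced, not to scale), for each line; points are libraries, lines join means and bars are the SD of 3 libraries, red for TGF-β and blue for SB431542. The red libraries from 2 h on lie above the blue ones at the same time in every panel, and the blue lines fall in M1 but not in MDA-MB-231.

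The rise with TGF-β began by 2 h for NONHSAG032780.2. In M1 its 3 control libraries stood at 3.24, 0.980 and 1.91 TPM, those at 2 h at 7.25, 4.41 and 6.67, those at 8 h at 11.8, 10.3 and 6.68, and those at 24 h at 8.97, 17.9 and 9.21 TPM. All later libraries lay above the controls, and 1 library at 24 h, replicate 2, stood well above the other two. In MDA-MB-231 the controls stood at 1.82, 1.70 and 0.961 TPM, the 2 h libraries at 5.34, 4.77 and 5.83, the 8 h libraries at 10.4, 10.2 and 11.1, and the 24 h libraries at 12.0, 6.74 and 11.8 TPM. Every library with ligand was above the controls, and replicate 2 was the low one at 24 h.

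M2 differed from the other two in its starting level of NONHSAG032780.2. Its controls were listed at 0, 0 and 0.0983 TPM, and the 2 h libraries stood at 2.08, 3.15 and 0.896 TPM. At 8 h the M2 libraries stood at 3.47, 3.49 and 3.77 TPM and at 24 h at 6.95, 8.58 and 8.80 TPM. From a level at or near 0 the M2 libraries thus came within the range of the MDA-MB-231 libraries at 24 h, but not at 8 h, where all 3 were below the lowest of M1 and MDA-MB-231. At 24 h all 3 M2 libraries were still below the lowest M1 library, at 8.97 TPM. The mean at 8 h was 44.1% of the mean at 24 h in M2, 79.7% in M1 and 104% in MDA-MB-231. This difference in timing was not tested.

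On the log2(TPM + 0.5) scale, which understates changes of low genes, the 24 h change of NONHSAG032780.2 from 0 h was 2.33 for M1 (SE 0.35), 4.01 for M2 (SE 0.29) and 2.41 for MDA-MB-231 (SE 0.27). At 2 h it was 1.45, 2.15 and 1.57 and at 8 h 2.05, 2.94 and 2.50 in the same order. The M2 change at 24 h depended on the pseudocount, at 3.14 with 1 TPM and 6.02 with 0.1 TPM added, since the controls were near 0. It exceeded that of M1 by 1.68 (95% interval 0.78 to 2.59), and MDA-MB-231 minus M2 was −1.60 (interval −2.34 to −0.86). MDA-MB-231 and M1 differed by 0.08 (interval −0.79 to 0.96). Leaving out 1 library in turn moved that difference between −0.25 and 0.42, and its interval does not show that these lines responded alike. On this log2 scale and from 0 h, the label of about equal change does not describe NONHSAG032780.2 in M2. The size of that gap rests on M2 controls near 0, and M2 minus M1 ran from 1.04 to 3.45 over all alternatives. In mean TPM the gene went from 2.04 to 12.0 in M1, from 0.0328 to 8.11 in M2 and from 1.49 to 10.2 in MDA-MB-231. Which scale and contrast the label refers to is not stated.

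NONHSAG015465.2 started from a measurable level in every line. In M1 the control libraries stood at 3.51, 3.29 and 2.54 TPM, the 2 h libraries at 10.6, 8.84 and 11.0, the 8 h libraries at 16.9, 20.6 and 16.3, and the 24 h libraries at 16.6, 15.0 and 18.8 TPM. In M2 the controls stood at 3.26, 2.15 and 3.02 TPM, and the later libraries at 15.0, 11.5 and 9.56 (2 h), 20.7, 24.6 and 33.2 (8 h) and 20.2, 19.2 and 22.6 TPM (24 h). In both lines the 2 h libraries lay between the controls and the 8 h libraries, and the ranges at 8 and 24 h overlapped.

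In MDA-MB-231 the controls of NONHSAG015465.2 stood at 6.17, 3.85 and 3.21 TPM, the 2 h libraries at 7.31, 8.25 and 7.93, the 8 h libraries at 19.4, 13.4 and 22.9, and the 24 h libraries at 22.6, 12.9 and 22.7 TPM. Replicate 2 was the low library at 24 h, as it was for NONHSAG032780.2. The mean at 2 h was 40.4% of that at 24 h in MDA-MB-231, 60.4% in M1 and 58.2% in M2, a difference that was not tested. Every later library of either gene exceeded the 3 controls of its line; among all tested genes such a rise without overlap was seen at 24 h in 6.06% (M1), 5.27% (M2) and 3.95% (MDA-MB-231). At 2 h the shares were 7.14%, 6.25% and 4.28%, and at 8 h 15.4%, 8.07% and 4.72%. Since the genes were chosen for this rise, nothing follows from these shares about them.

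The 24 h log2 change of NONHSAG015465.2 was 2.26 for M1 (SE 0.34), 2.69 for M2 (SE 0.30) and 2.02 for MDA-MB-231 (SE 0.32). At 2 h the changes were 1.56, 1.91 and 0.81 and at 8 h 2.35, 3.00 and 1.97. As deposited, the 24 h change of M2 minus M1 was 0.43 (95% interval −0.50 to 1.36), of MDA-MB-231 minus M1 −0.25 (−1.21 to 0.72) and of MDA-MB-231 minus M2 −0.67 (−1.57 to 0.23). These intervals leave room for differences above 1 on the log2 scale, so they do not show that the lines responded alike. After rescaling the M2 change at 24 h was 3.73 (SE 0.25) and exceeded that of M1 by 1.29 (SE 0.40), with MDA-MB-231 minus M2 at −1.35 (SE 0.34). The M2 change thus lay further from the other lines after rescaling than as deposited. Leaving out 1 library in turn moved MDA-MB-231 minus M1 between −0.42 and 0.02, the highest being without MDA-MB-231 24 h replicate 2.

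**Figure D2:**
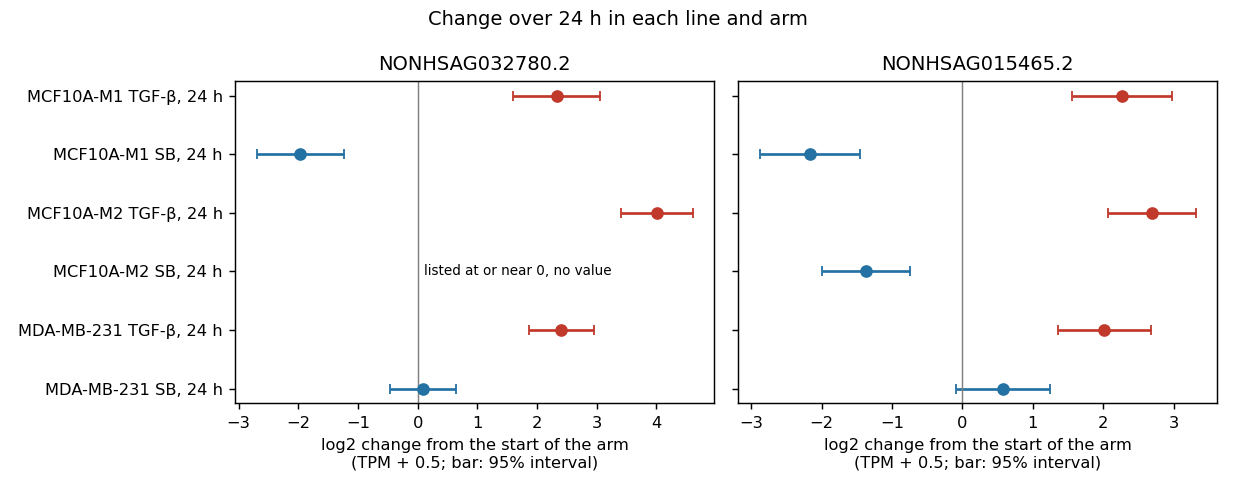
Log2 change over 24 h of both genes in each line, from the non-stimulated controls under TGF-β (red) and from the earliest SB samples under SB431542 (blue), on the log2(TPM + 0.5) scale with 95% intervals from limma; NONHSAG032780.2 under SB431542 in M2 has no value. The red changes lie between 2.02 and 4.01, and the blue ones are below 0 in M1 and near or above 0 in MDA-MB-231.

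The inhibitor arm asked what became of the genes when the type I receptor kinase was blocked and no ligand was added. In M1 both genes fell. NONHSAG032780.2 stood at 2.23, 2.26 and 1.54 TPM in the earliest SB libraries, at 2.09, 1.31 and 2.87 at 2 h, at 0, 0.527 and 0.226 at 8 h and at 0.165, 0.109 and 0.137 TPM at 24 h. NONHSAG015465.2 went from 4.33, 2.11 and 1.64 TPM to 1.31, 2.96 and 2.45 at 2 h, to 0.407, 1.03 and 0 at 8 h and to 0, 0.204 and 0.348 TPM at 24 h. The 2 h libraries overlapped the earliest ones, and no library at 8 or 24 h did for either gene.

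The M1 log2 change under SB was −1.79 (SE 0.35, limma adjusted p 0.0039) for NONHSAG032780.2 and −1.76 (SE 0.34, adjusted p 0.00345) for NONHSAG015465.2 at 8 h. At 24 h it was −1.97 (SE 0.35, limma adjusted p 0.000987) and −2.17 (SE 0.34, adjusted p 0.000262). Both genes passed at each of these times, when 1.81% (8 h) and 3.24% (24 h) of 20899 tested genes passed as lower; a fall without overlap was seen in 9.41% and 13%. At 2 h neither passed (changes 0.01 and −0.18), when by limma adjusted p 0.0526% of genes passed as lower and 0.0813% in either direction. Neither had an unadjusted limma p under 0.05 at 2 h, which 1807 of the 20899 genes had. The median change of all tested genes at 24 h of SB in M1 was 0.01, and the changes after rescaling were −1.96 and −2.16. Since the levels end near 0, their size depended on the pseudocount: with 1 and 0.1 TPM added, the 24 h change was −1.40 and −3.14 for NONHSAG032780.2 and −1.59 and −3.43 for NONHSAG015465.2. The 8 h call of NONHSAG015465.2 was lost in a fit on the compared groups alone (limma adjusted p 0.0809, the highest of its 14 alternatives, the lowest being 0.000716).

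In M2 only NONHSAG015465.2 had a level from which it could fall. NONHSAG032780.2 was listed at 0 in 8 of 12 SB libraries of M2 and at no more than 0.219 TPM in the others, so no change is given. NONHSAG015465.2 stood at 3.66, 2.24 and 6.62 TPM in the earliest SB libraries, at 2.04, 2.63 and 1.55 at 2 h, at 0.789, 0.655 and 1.27 at 8 h and at 1.54, 1.32 and 0.781 TPM at 24 h. The libraries at 8 and 24 h lay below the earliest ones, as they did for 24.3% and 48.4% of tested genes. Its log2 change was −0.77 at 2 h (SE 0.30, limma adjusted p 0.141, unadjusted p 0.0175), −1.65 at 8 h (SE 0.30, adjusted p 0.00778) and −1.37 at 24 h (SE 0.30, adjusted p 0.0014).

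At 8 h of SB 1.88% of 16958 genes passed as lower in M2, but at 24 h 35.2% did, so the 24 h call of NONHSAG015465.2 is close to the background. The median change of all tested genes at 24 h of SB in M2 was −0.63, and a library held 13123 ± 1024 genes of at least 0.5 TPM at the start and 9310 ± 42.9 at the end (SD, n = 3 each). The part of this shift in the fall of NONHSAG015465.2 was not tested beyond rescaling, after which its 24 h change was −0.64 (limma adjusted p 0.0724) and its 8 h change −1.27 (adjusted p 0.00749). The 8 h call was lost without earliest SB replicate 3 or 8 h replicate 2 (limma adjusted p 0.0637 and 0.054). It was also lost when the total for scaling left out the top 10 genes (−1.21, limma adjusted p 0.268). Over all alternatives the limma adjusted p ran from 0.0028 to 0.268 at 8 h and from 0.000368 to 0.121 at 24 h. At 2 h, 2.98% of genes passed as lower.

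In MDA-MB-231 neither gene changed by the test under SB. NONHSAG032780.2 stood at 1.33, 0.591 and 1.14 TPM in the earliest SB libraries, at 1.12, 0.821 and 0.904 at 2 h, at 0.933, 1.06 and 1.86 at 8 h and at 1.02, 1.23 and 1.00 TPM at 24 h. NONHSAG015465.2 stood at 2.84, 5.62 and 4.41 TPM, then at 5.14, 4.06 and 4.37 (2 h), 3.70, 2.94 and 7.64 (8 h) and 9.28, 5.97 and 4.78 TPM (24 h). Each later group overlapped the earliest SB libraries for both genes. The 24 h log2 change was 0.09 (95% interval −0.46 to 0.64, limma adjusted p 0.919) for NONHSAG032780.2 and 0.58 (interval −0.09 to 1.24, adjusted p 0.407) for NONHSAG015465.2. The interval of NONHSAG015465.2 does not reach the fall of −2.17 measured in M1. For NONHSAG032780.2 the same comparison cannot be made. Its earliest SB libraries stood at 0.87, 0.13 and 0.72 on the log2 scale, where 0 TPM is −1. A fall of about 2, as in M1, was therefore out of reach. Of 16552 genes 1.9% passed at 24 h in either direction, 0.242% at 8 h and 0% at 2 h, when 1007 had an unadjusted p under 0.05; neither gene passed at an unadjusted p under 0.05 at any of the 3 times.

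The difference between lines in the 24 h change under SB was then tested itself. MDA-MB-231 minus M1 was 2.06 (SE 0.43, limma adjusted p 0.00353) for NONHSAG032780.2 and 2.75 (SE 0.48, adjusted p 0.000322) for NONHSAG015465.2, and 1.52% of 22921 genes passed in this direction. Both passed under all 20 alternatives tried for each, with limma adjusted p up to 0.0203 and 0.0105. For NONHSAG015465.2, MDA-MB-231 minus M2 was 1.94 (SE 0.45, limma adjusted p 0.00231), when 15.7% of 20203 genes passed as higher and the median difference of all genes was 0.48. That call was lost when the total for scaling left out the top 10 genes (1.42, limma adjusted p 0.0755, in a range over alternatives of 0.0007 to 0.0755). After rescaling the difference was smaller, at 1.23 (limma adjusted p 0.0141), beside a median of 0.05 over all genes. M2 minus M1 was 0.80 for NONHSAG015465.2 (interval −0.13 to 1.73, limma adjusted p 0.228) and 1.33 after rescaling (adjusted p 0.0203, in a range of 0.0203 to 0.545); 1.53% of 21857 genes passed as higher. NONHSAG032780.2 in M2 had no level from which to fall, so its differences with M2 are not given.

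Before the ligand NONHSAG032780.2 was lower in M2 than in M1 and MDA-MB-231, a difference that many tested genes shared. In the earliest SB libraries, which are not the controls from which its rise was measured, it stood at 1.54 to 2.26 TPM in M1, 0.591 to 1.33 TPM in MDA-MB-231 and 0 to 0.170 TPM in M2, with no overlap between lines. Such a gap was seen in 24.4% of tested genes for M2 below M1, 36.7% for MDA-MB-231 below M1 and 20.6% for MDA-MB-231 above M2. The level in M2 was lower than in M1 by a log2 difference of −2.07 (SE 0.32, limma adjusted p 8.26e-06), when 14.4% of 21857 genes passed as lower. MDA-MB-231 was higher than M2 by 1.33 (SE 0.26, limma adjusted p 6.47e-05), when 16.4% of 20203 genes passed as higher. Since the M2 libraries are near 0, the size of both differences depended on the pseudocount. Over all alternatives M2 minus M1 ran from −3.54 to −1.45 and MDA-MB-231 minus M2 from 0.87 to 2.58. Both passed throughout, with limma adjusted p up to 0.00345 and 0.00438. The difference of MDA-MB-231 from M1, −0.74 (SE 0.31, limma adjusted p 0.0484), passed where 30% of 22921 genes did so as lower. It did not pass after rescaling (−0.41, adjusted p 0.243), with the replicate block (adjusted p 0.0543), or without M1 earliest SB replicate 1 or 2 or MDA-MB-231 earliest SB replicate 2 or 3 (adjusted p 0.0604 to 0.239). The call was also lost with 0.1 or 1 TPM added and with the total for scaling short of the top 10 genes. The same held without the filter and in a fit on the compared groups alone. Over all alternatives the limma adjusted p of this difference ran from 0.0381 to 0.248.

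For NONHSAG015465.2 no pair of lines passed in the earliest SB samples, where its means were 2.70 ± 1.44 TPM for M1, 4.17 ± 2.24 for M2 and 4.29 ± 1.39 for MDA-MB-231 (SD, n = 3 each). Of all tested genes 18.2% (M2 and M1), 41.1% (MDA-MB-231 and M1) and 36% (MDA-MB-231 and M2) passed in either direction. The log2 differences were 0.53 for M2 minus M1 (95% interval −0.13 to 1.19, limma adjusted p 0.27) and 0.10 for MDA-MB-231 minus M2 (interval −0.54 to 0.74, adjusted p 0.844). For MDA-MB-231 minus M1 it was 0.63 (interval −0.06 to 1.32, limma adjusted p 0.137). This last difference passed after rescaling (0.99, limma adjusted p 0.00333), with the total for scaling short of the top 10 genes (0.93, adjusted p 0.0226), and without M1 earliest SB replicate 1 (0.97, adjusted p 0.0318). Over all alternatives its limma adjusted p ran from 0.00333 to 0.45. The controls and the earliest SB samples of one line differed, control minus SB, by −0.40 to 0.39 over both genes and the 3 lines, with 95% intervals that all included 0.

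Set beside each other at the same hour, ligand and inhibitor gave differences from the start of the course. These share the TGF-β libraries with the rise and are a description. At 2 h the log2 difference of TGF-β minus SB for NONHSAG032780.2 was 1.37 (M1) and 2.01 (MDA-MB-231). For NONHSAG015465.2 it was 2.00 (M1), 2.28 (M2) and 0.73 (MDA-MB-231). At 8 h it was 3.77 in M1 and 2.67 in MDA-MB-231 for NONHSAG032780.2, and 4.37, 4.24 and 1.93 in the 3 lines for NONHSAG015465.2. The M1 values at 8 h depended on the pseudocount, from 3.07 to 5.11 for NONHSAG032780.2 and from 3.73 to 5.54 for NONHSAG015465.2. At 24 h it was 4.23 (SE 0.35) in M1 and 2.71 (SE 0.27) in MDA-MB-231 for NONHSAG032780.2. Its M2 libraries under SB are at or near 0 at every hour, so no M2 difference is given. For NONHSAG015465.2 it was 4.69 (SE 0.34), 3.65 (SE 0.30) and 1.47 (SE 0.32) in M1, M2 and MDA-MB-231.

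Both genes were thus further apart between ligand and inhibitor in M1 than in MDA-MB-231 at 24 h, a difference that was not tested, while their rises from 0 h in these lines differed by 0.08 and −0.25 on the log2 scale. For NONHSAG015465.2 the ratio of mean TPM between the arms at 24 h was 91.4 (M1), 17.0 (M2) and 2.90 (MDA-MB-231), and for NONHSAG032780.2 it was 88.1 in M1 and 9.39 in MDA-MB-231. The SB means at 24 h were 6.82% (M1), 29.1% (M2) and 156% (MDA-MB-231) of the earliest SB mean for NONHSAG015465.2, and 6.80% in M1 and 106% in MDA-MB-231 for NONHSAG032780.2. Leaving out 1 library in turn, the ratio for NONHSAG015465.2 in M1 ran from 60.9 to 165 (the highest without SB replicate 3), and its M1 share from 3.79% to 10.2%, since the SB libraries are near 0. In each line and at each later hour the 3 TGF-β libraries of each gene lay above the 3 SB libraries. Such a difference was seen in 7.39% (2 h), 15.5% (8 h) and 8.23% (24 h) of tested genes in M1. M2 had shares of 13.6%, 21.6% and 10.3%, and MDA-MB-231 of 3.94%, 5.79% and 2.48%.

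The ratio of the 2 genes within a library does not depend on how the library was scaled. NONHSAG032780.2 divided by NONHSAG015465.2 was 0.658 ± 0.323 in the M1 controls and 0.743 ± 0.396 at 24 h of TGF-β (SD, n = 3 each), a change smaller than the spread. In MDA-MB-231 it was 0.345 ± 0.0827 in the controls, 0.681 ± 0.0898 at 2 h and 0.526 ± 0.00604 at 24 h (n = 3 each). The 24 h ratios of MDA-MB-231 ran only from 0.522 to 0.533, so replicate 2 was low in both genes by the same proportion. In M2 the ratio was at most 0.0325 in the controls, 0.141 ± 0.0271 at 8 h and 0.394 ± 0.052 at 24 h (n = 3 each). The ratio in M2 thus lay lowest at the start and moved furthest, with all 24 h libraries above all 8 h libraries.

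**Figure D3:**
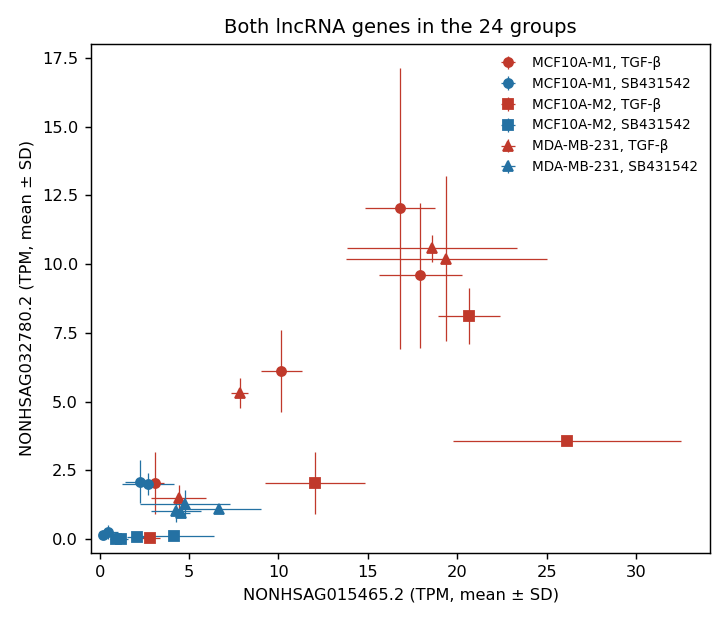
Mean TPM of NONHSAG032780.2 against that of NONHSAG015465.2 in the 24 groups, with SD bars over 3 libraries on both axes; marker shapes are lines, red is the TGF-β arm with its 0 h controls and blue is the SB431542 arm. The M2 groups at 2 and 8 h of TGF-β lie below those of the other two lines, with 3.58 TPM of NONHSAG032780.2 at 26.1 TPM of NONHSAG015465.2 at 8 h.

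Among 13631 genes tested in all 3 lines, 31 were called higher at 24 h of TGF-β in every line, both genes among them. Since the 2 genes were named for a rise in these lines, their place in this set is a description and no support for it. NONHSAG032780.2 entered the M2 fit only through its TGF-β libraries, 9 of 24 being at 0.5 TPM or more. In the lines taken alone, 2.6% (M1), 4.21% (M2) and 1.23% (MDA-MB-231) of tested genes were called higher. By mean log2 change over the lines NONHSAG032780.2 ranked 3 with 2.92 and NONHSAG015465.2 ranked 5 with 2.32, against a median of 1.37. The gap between the highest and the lowest line was 1.68 for NONHSAG032780.2 and 0.67 for NONHSAG015465.2, ranks 25 and 10 from the smallest, with a median of 0.91. On the deposited scale the 9 genes with smaller gaps than NONHSAG015465.2 all had a lower mean change. After rescaling its gap was 1.38, rank 16 of 31 from the smallest, and that of NONHSAG032780.2 was 2.06, rank 25. In the SB arm at 24 h, 16 (M1), 10 (M2) and 1 (MDA-MB-231) of the 31 genes passed as lower, while 2, 7 and 4 passed as higher. Of all tested genes 3.24%, 35.2% and 1.01% passed as lower and 2.01%, 2.01% and 0.882% as higher. The median change of the 31 was −0.77 (M1), −0.20 (M2) and 0.21 (MDA-MB-231), beside 0.01, −0.63 and −0.05 over all tested genes. On this deposited scale M1 was lowest and MDA-MB-231 highest for the set as for NONHSAG015465.2. In M2, however, the set median lay above that of all tested genes, and NONHSAG015465.2 lay below it. The M2 median and counts include NONHSAG032780.2 and NONHSAG026213.2, which were at or near 0 under SB there and could not fall. Those of MDA-MB-231 also include NONHSAG026213.2, at a mean of 0.0251 TPM in the earliest SB samples and 0 TPM at 24 h of SB. Whether further genes of the 31 were as low was not analysed here.

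**Figure D4:**
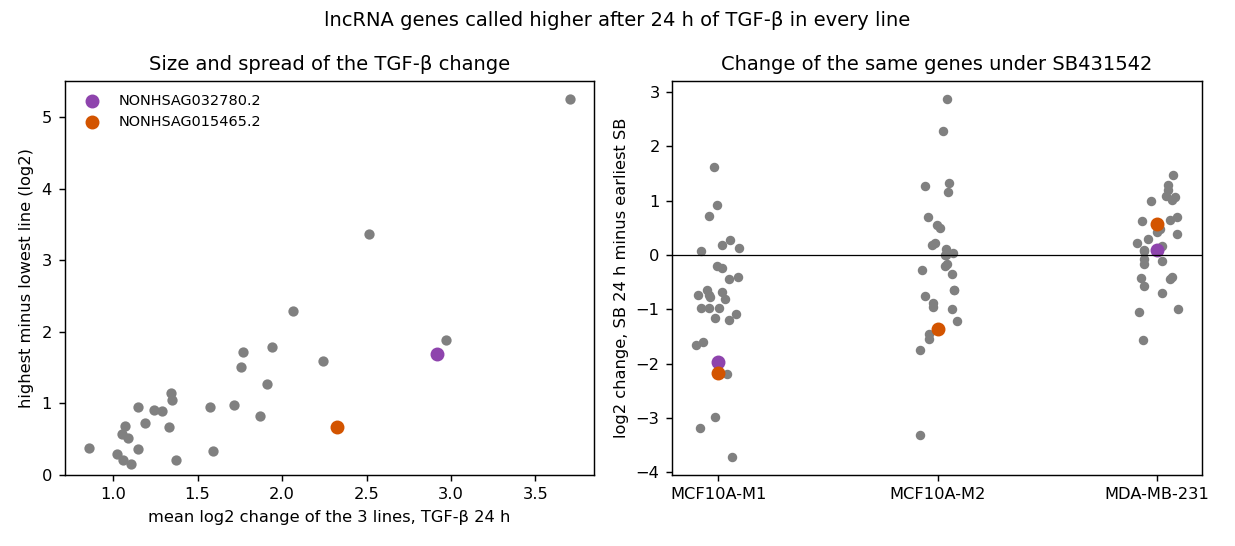
The 31 genes called higher after 24 h of TGF-β in every line; left, the gap between the highest and the lowest line against the mean log2 change; right, their log2 change after 24 h of SB431542 in each line, with NONHSAG032780.2 in purple, NONHSAG015465.2 in orange and the others in grey (points are spread sideways at random, and NONHSAG032780.2 is not drawn in M2). On the deposited scale drawn here NONHSAG015465.2 joins a mean change of 2.32 with a gap of 0.67 (1.38 after rescaling), and both genes are below 0 in M1.

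The genes whose course was most like theirs were sought by Pearson's r over the 24 group means of log2(TPM + 0.5), each line centred on its own mean, among 13630 other genes. The closest to NONHSAG015465.2 was NONHSAG032780.2 (r = 0.94), followed by NONHSAG012148.2 (r = 0.94). The closest to NONHSAG032780.2 were NONHSAG026213.2 (r = 0.96) and NONHSAG067779.1 (r = 0.96), with NONHSAG015465.2 at rank 3. Between the 2 genes r was 0.99 within M1, 0.93 within M2 and 0.94 within MDA-MB-231, and 0.84 over the groups without centring. These values describe group means from shared libraries and carry no test. Both genes were chosen for a rise with TGF-β, so their closeness to each other follows in part from that choice.

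All 3 of these similar genes belong to the 31. NONHSAG067779.1 was far more abundant, at 273 ± 28.4 TPM in the M1 controls, 696 ± 29.9 TPM at 24 h of TGF-β and 86.3 ± 7.25 TPM at 24 h of SB (SD, n = 3 each). NONHSAG026213.2 shared with NONHSAG032780.2 a start at or near 0 in M2, with controls between 0 and 0.43 TPM and 9.97 ± 1.98 TPM at 24 h of TGF-β. In MDA-MB-231 it was also listed at 0 in the controls and reached a mean of 1.78 TPM at 24 h of TGF-β. There NONHSAG032780.2 went from a mean of 1.49 to 10.2 TPM. NONHSAG012148.2 stood in MDA-MB-231 at 13.4 ± 4.19 TPM in the controls, 30.6 ± 5.45 TPM at 24 h of TGF-β and 25.0 ± 8.68 TPM at 24 h of SB (n = 3 each). There, as with NONHSAG015465.2, its SB mean was above that of the earliest SB samples, 11.9 ± 1.90 TPM (log2 change 0.99, limma adjusted p 0.0904).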

How the data were processed

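The members and the gene lists were chosen with earlier results of these data known. Values are the TPM that the authors deposited, for 96411 lncRNA genes and 72 libraries; the submitters' processing notes list the build GRCh38 and the tools StringTie 1.3.6, HISAT2 2.2.0, cutadapt 2.10 and FastQC. The sources used here state no parameters, annotation release or strand setting, so a gene and an overlapping or antisense neighbour may share reads, and depth is unknown. Columns were matched to samples by their labels.

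A gene entered a fit with 3 or more of its libraries at 0.5 TPM or above. Tests used log2(TPM + 0.5) and limma 3.58.1 (trend) in R 4.3.3, Benjamini-Hochberg adjusted over all genes of the fit and called under 0.05, two-sided. Both genes passed this filter in every line, NONHSAG032780.2 in M2 through 9 TGF-β libraries alone. A line's 24 libraries entered each within-line fit, and 48 the line comparisons. Replicates are called biological; nothing says they were separate cultures, so p-values reflect the spread between these samples, which may be technical. Besides both genes, the 2 genes most similar to each were named. A planned list of TGF-β-related lncRNAs named by symbol was not analysed here, as identifiers carry no symbols. Alternatives were other pseudocounts, filters and scalings, dropping each library in turn, a fit on only the groups compared, and a replicate block. The rescaled gaps between lines and the 24 h ratios with libraries left out were added after seeing the data.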

Additional observations from a re-analysis of the deposited data

Results flagged for a closer look

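The 24 h change under SB differed between lines by the test of the difference itself (limma, adjusted over all genes of the fit). MDA-MB-231 minus M1 was 2.06 for NONHSAG032780.2 (limma adjusted p 0.00353) and 2.75 for NONHSAG015465.2 (limma adjusted p 0.000322). Of 22921 genes 1.52% passed in this direction. In M1 the 3 libraries of each gene at 24 h lay below the 3 earliest SB libraries, while in MDA-MB-231 they overlapped. Such a fall without overlap was seen in 13% of tested genes in M1. MDA-MB-231 minus M2 was 1.94 for NONHSAG015465.2 (limma adjusted p 0.00231), beside a median difference of 0.48 over all genes. Here 15.7% of 20203 genes passed as higher. The call was lost when the total for scaling left out the top 10 genes (1.42, limma adjusted p 0.0755). After rescaling the difference was 1.23 (limma adjusted p 0.0141), beside a median of 0.05.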

How the results depend on the processing

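Under settings other than leaving out a library, 182 tested values kept direction and side of the threshold, 12 lost a call, 3 gained one and 3 turned sign; the cause was not tested. For NONHSAG015465.2 in M2, the 24 h SB change was −0.64 after rescaling and −0.85 with the top 10 genes taken out of the total for scaling, neither passing; the latter setting also lost MDA-MB-231 minus M2 (1.42). Rescaling brought M2 minus M1 past the threshold (1.33), and both scalings brought the MDA-MB-231 minus M1 starting level past it (0.99 and 0.93). The NONHSAG032780.2 starting level of MDA-MB-231 minus M1 lost its call as −0.96 and −0.58 with 0.1 and 1 TPM added, −0.41 and −0.47 under the 2 scalings, and −0.74 with the replicate block, without the filter and with the compared groups alone.

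The replicate block changed no other call of either gene. Same-numbered libraries did not deviate together: r over genes was −0.0993 to 0.0457 and at most 1 library in a pair of groups matched its own number best, so the numbers were not taken as pairs.

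Of TGF-β values, which have no test, 26 at 24 h and 15 at 2 or 8 h moved by more than the replicate SD, as did the 2 h change of NONHSAG032780.2 in M2 on leaving out 2 h replicate 2 (1.84) or 3 (2.53). The values at 24 h were as follows. Rescaling gave 3.73 (M2), 1.29 (M2 minus M1) and −1.35 (MDA-MB-231 minus M2) for the 24 h change of NONHSAG015465.2, and 4.05 (M2) and 1.93 (MDA-MB-231) for TGF-β minus SB. For NONHSAG032780.2 it gave 4.75 (M2), 2.72 (MDA-MB-231), 2.53 (M2 minus M1) and −1.98 (MDA-MB-231 minus M2), and 3.10 for TGF-β minus SB in MDA-MB-231. With the top 10 genes taken out, the M2 changes were 3.30 and 4.48 for NONHSAG015465.2 and NONHSAG032780.2, and MDA-MB-231 minus M2 was −1.26 for NONHSAG015465.2. With 0.1 and 1 TPM added, the M2 change of NONHSAG032780.2 was 6.02 and 3.14, M2 minus M1 3.45 and 1.04, and MDA-MB-231 minus M2 −3.33 and −0.99. TGF-β minus SB was then 5.61 and 3.45 (M1) and 3.08 and 2.39 (MDA-MB-231) for NONHSAG032780.2, 6.14 and 3.92 (M1) for NONHSAG015465.2, and 4.03 in M2 with 0.1 TPM. At 2 or 8 h, TGF-β minus SB of NONHSAG015465.2 was 5.54 and 3.73 (M1, 8 h) and 4.73 and 3.82 (M2, 8 h) with 0.1 and 1 TPM, and 1.90 (M2, 2 h) after rescaling. For NONHSAG032780.2 it was 5.11 and 3.07 (M1, 8 h), 2.37 and 1.70 (MDA-MB-231, 2 h) and 3.00 and 2.36 (MDA-MB-231, 8 h), and its M2 change 3.93 and 1.49 (2 h) and 4.87 and 2.15 (8 h).

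Among tested values, signs turned for SB or starting-level differences that passed in no setting. Of the untested, MDA-MB-231 minus M1 in the 24 h TGF-β change also turned, at −0.25 to 0.42 (NONHSAG032780.2) and −0.42 to 0.02 (NONHSAG015465.2) on leaving out 1 library. NONHSAG032780.2 at 2 h of SB was −0.039 (M1) and 0.028 (MDA-MB-231) after rescaling and 0.022 (MDA-MB-231) with the 10 genes left out. Leaving out 1 library in turn gave −0.20 to 0.25 (M1, 2 h), −0.26 to 0.11 (MDA-MB-231, 2 h) and −0.13 to 0.24 (MDA-MB-231, 24 h) for NONHSAG032780.2. For NONHSAG015465.2 it gave −0.43 to 0.16 (M1, 2 h), −0.13 to 0.31 and −0.29 to 0.33 (MDA-MB-231, 2 and 8 h) and −0.23 to 0.46 (MDA-MB-231 minus M2 starting level). The MDA-MB-231 minus M1 starting level then ran from −0.89 to −0.52 for NONHSAG032780.2 and 0.39 to 0.97 for NONHSAG015465.2. Depth is unknown, so no detection limit could be set for libraries listed at 0.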
